A study of Mus musculus with 8 samples.

Results

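The comparison concerns mouse embryonic stem cells after an inhibitor of protein SUMOylation had been taken away. It sets both D8 libraries against both D3 libraries, chosen by their day labels, which makes 4 of the 8 libraries of the series. The cells are R1, an established embryonic stem cell line of the mouse kept in medium with serum and LIF, the cytokine that supports self-renewal. The D3 cells had just completed 48 h with ML-792, at a dose labelled 2.5 mM, which began at D1. The D8 cells carry the label control and were collected 5 days later, immediately ahead of a second 48 h exposure that ended at D10. D1 is the untreated start of the series and D10 the end of the second exposure. The title of D1 replicate 2 gives D1 and its time tag D0, and it was kept at D1. No D3 or D10 library without ML-792 is among the samples used here, so withdrawal and 5 further days of culture cannot be told apart. The labels do not say whether the 2 libraries of a day came from separate cultures, and the p-values therefore measure only the spread between these samples, which may be technical.

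SUMO is a small protein that is attached to lysines of other proteins, many of them chromatin factors, by a cascade that starts with an E1 enzyme made of the Sae1 and Uba2 products. ML-792 blocks that E1 enzyme. In mouse embryonic stem cells SUMOylation is known to help silence genes of the early embryo, among them the Zscan4 family and other genes of the so-called 2-cell-like state, a transient state that a small part of a stem cell culture enters and that is switched on by the transcription factor Dux. Naive pluripotency genes such as Klf4, Esrrb and Tfcp2l1 hold the cells in the state of the early epiblast, and the genes for GATA4, GATA6 and SOX17 mark primitive endoderm, the lineage next to it in the blastocyst.

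Reads in genes numbered 21040992 to 40835518 in the 8 libraries, and 23551283 to 33036253 in the 4 compared here. Levels below are CPM, read counts scaled to a common library size, after TMM scaling, which suit comparison of a gene between libraries and not of genes with each other, since they are not per length. D8 replicate 2 stood apart. Its levels rose with the GC content of genes at a Spearman rho of 0.618 over 11608 coding genes, against -0.398 to 0.106 in the other libraries, Rn7sk took 3.41% of its reads against 2.19% to 2.76%, and Malat1 0.0971% against 0.194% to 0.421%. The D8 to D3 difference rose with GC content at a rho of 0.404 over 14693 coding genes, and at 0.234 without that library, so fits without it are among the alternatives given below. The markers of embryonic stem cells summed to 3250 and 3510 CPM at D3 and to 3760 and 3780 CPM at D8. The 8 fibroblast markers summed to 8.85 to 19.7 CPM and the 5 blood and endothelial markers in the table to 12.8 to 28.2 CPM in the 4 libraries.

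Withdrawal of ML-792 was followed by a broad change of the transcriptome. Of the 19173 genes tested, 4312 (22.5%) were called at an adjusted p under 0.05 in edgeR's quasi-likelihood test, 2171 of them higher at D8 (11.3%) and 2141 lower (11.2%). The falls were larger than the rises: 1095 genes were lower by 4-fold or more (5.71% of those tested) and 343 higher (1.79%). A gene near silence at D8 passes the low-count filter only through the other days, so the large falls were partly set by that filter. A stricter filter, of 5 CPM in 2 libraries, kept 11488 genes. Of these, 249 were lower and 125 higher by 4-fold or more, while 1131 were called lower and 1494 higher at any size. The median log2 fold change of all 19173 genes was -0.01. Among the 4312 called genes the D3 and D8 values of none overlapped. Over all 19173 genes both D8 values lay above both D3 values for 31.9% and below them for 31.6%. The number of calls rested on single libraries: it was 1522 without D3 replicate 1 (551 higher, 971 lower), 2091 without D3 replicate 2 (843 and 1248), 2559 without D8 replicate 2 (1195 and 1364) and 5869 without D8 replicate 1. Of the 4312 genes, 2381 were also called without D8 replicate 2, and none of the genes called in both fits changed direction.

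The D8 cells were then set beside D1, the state before the first exposure. Between D8 and D1, which shares the D8 libraries with the main comparison, 34 genes (0.177%) were called, 27 higher (0.141%) and 7 lower (0.0365%), and DESeq2 called 269 higher and 149 lower. In edgeR the adjusted p-values of the 34 genes were 0.041 to 0.048, so all lay near the threshold. Apart from DESeq2, no alternative fit was made for D8 against D1, and none without D8 replicate 2 or with a correction for GC content. Between D3 and D1 there were 1518 higher (7.92%) and 978 lower (5.1%). A missed threshold does not show that D8 and D1 were alike, and each gene below is given with its D8 to D1 value where that helps.

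Genes that rose most at D8 included regulators and adhesion genes that had been nearly silent at D3. Nkx6-3, a homeobox gene, measured 0.126 and 0.174 CPM at D3 and 7.1 and 4.34 CPM at D8, a log2 fold change of 5.19 ± 0.46 (SE, n = 2 a group, edgeR adjusted p = 0.00057). Both D8 values were far above D3 and somewhat below the D1 values of 8.03 and 10.8 CPM. Tgm2, which encodes transglutaminase 2, a protein cross-linking enzyme, measured 2.44 and 2.72 CPM at D3 and 50.7 and 71.5 CPM at D8 (4.56 ± 0.42, adjusted p = 0.00067). Lad1, which encodes the basement membrane protein ladinin 1, rose from 1.26 and 1.18 CPM to 18.5 and 28.2 CPM (4.25 ± 0.29, adjusted p = 0.00042). Of the 10 largest rises among the genes chosen for naming, Lad1 alone was also called against D1, at 2.4 on the log2 scale (adjusted p = 0.041). The circadian repressor gene Bhlhe40 rose from 4.59 and 2.4 to 49 and 65.8 CPM, and the POU-domain gene Pou2f3 from 0.674 and 0.418 to 11 and 6.76 CPM. Among genes with a mean of at least 50 CPM, Scd1, the gene of a fatty acid desaturase, rose from 22.2 and 16 to 133 and 127 CPM (2.77 ± 0.28). Each of these 6 genes kept its call in every fit that left out 1 library.

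Falls were led by genes that were close to undetected at D8. Mrgprx2, a receptor gene, had 4.67 and 1.81 CPM at D3 and no read in either D8 library, at least 63.8-fold lower when 3 reads are taken as the limit for both D8 libraries together. Mmp1b, a collagenase gene, was at least 45.4-fold lower and Kng2, a kininogen gene, at least 44.3-fold lower. Such limits and the intervals that follow reflect counting error alone, since no molecular identifiers mark which reads came from separate molecules. The metalloelastase gene Mmp12 had 7.24 and 30.1 CPM at D3 and 0 and 0.0644 CPM at D8, a ratio of 609 (95% counting interval 168 to 5030). Mmp12 and Mmp1b overlap on opposite strands of chromosome 9, and their reads cannot be told apart with certainty because the strand setting of the count is not given in the sources used here. Akr1c21, of the aldo-keto reductase family, fell from 4.8 and 6.79 CPM to 0.0327 and 0.0322 CPM, a ratio of 182 (49.8 to 1510). Abundant genes fell too. Mep1b, which encodes the metalloprotease meprin beta, measured 97.2 and 95.5 CPM at D3 and 4.65 and 4.12 CPM at D8 (-4.46 ± 0.16, adjusted p = 1.1e-05), beside 5.45 and 6.09 CPM at D1. Prex2, a Rac exchange factor gene, fell from 193 and 146 CPM to 23.2 and 10.8 CPM (-3.32 ± 0.45, adjusted p = 0.002).

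**Figure D1:**
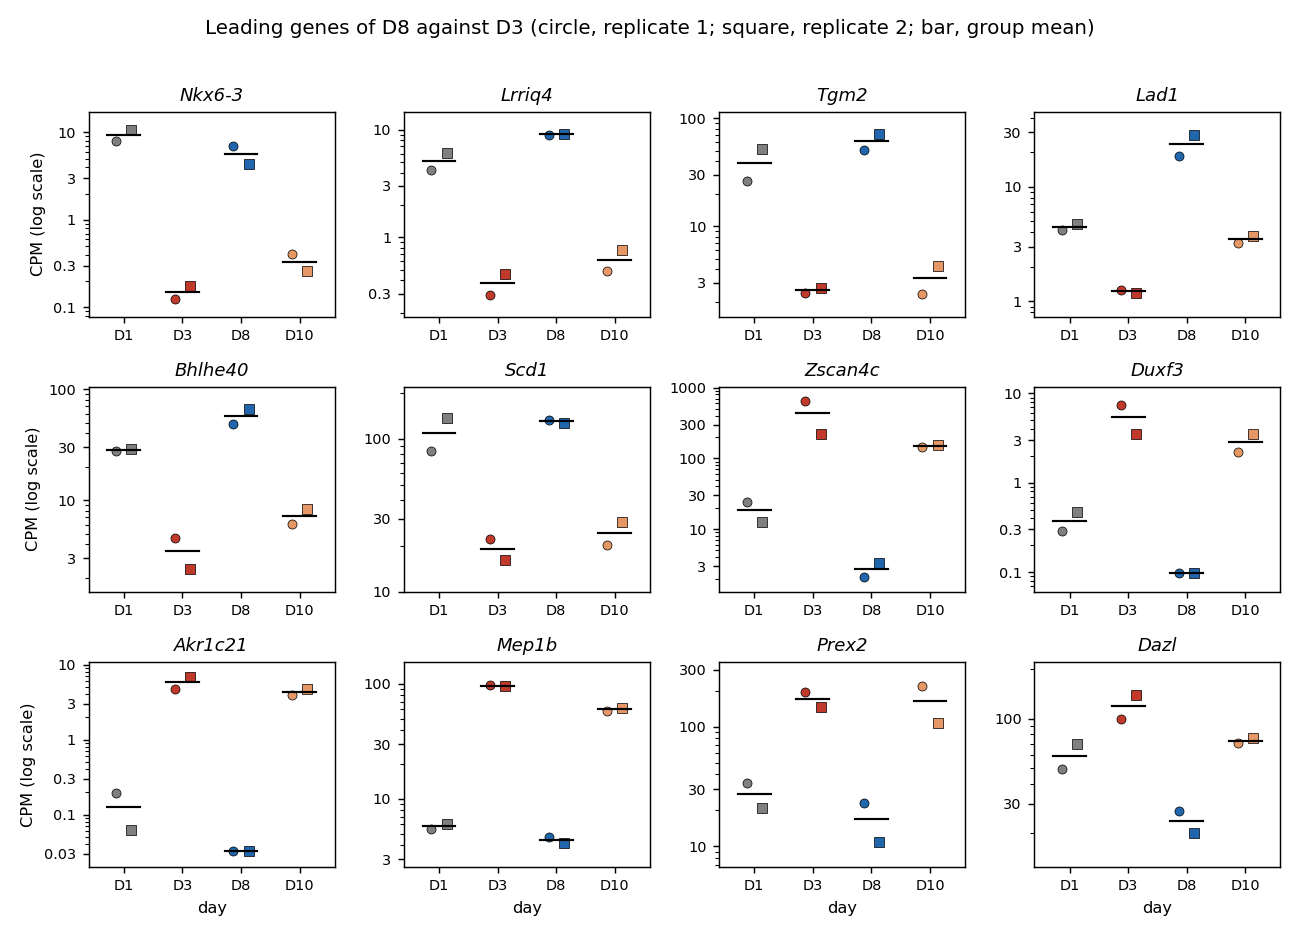
CPM on a log axis by day for 12 genes, with a circle for replicate 1, a square for replicate 2 and a bar for the mean of each day. In the first 6 panels both D8 libraries lie above both D3 libraries, and in the other 6 they lie below. The D10 libraries lie on the D3 side of D8 in all 12 panels.

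Genes of the 2-cell-like state had the lowest median of the lists examined. Of the 52 genes listed, 41 passed the low-count filter. A member near silence at D8 passes it only through the other days, so falls of such members were partly set by the filter. With the stricter filter of 5 CPM in 2 libraries, 27 members were called lower. Of the 41 members tested in the main fit, 33 were called lower (80.5%, against 11.2% of all genes tested) and 0 higher, with a median log2 fold change of -5.61. The number was 32 or 33 in each fit without 1 of the D3 or D8 libraries. Zscan4c, whose product acts at telomeres and marks the state, had 641 and 224 CPM at D3 and 2.09 and 3.35 CPM at D8 (-7.31 ± 0.61, adjusted p = 0.00051). The D3 libraries themselves differed, replicate 1 standing well above replicate 2, and the same held for Zscan4d at 1450 and 405 CPM and Tcstv3 at 72.3 and 22.1 CPM. Duxf3, the mouse Dux gene that switches on the state, fell from 7.41 and 3.55 CPM to 0.0981 and 0.0965 CPM (-5.75 ± 0.58, adjusted p = 0.00086). Zfp352 fell by 4.95 ± 0.59 on the log2 scale and the bHLH gene Spz1 by 6.7 ± 0.7. D8 levels of the 4 markers of the state summed to 5.07 and 8.46 CPM, beside 71.3 and 34.6 CPM at D1 and 2110 and 638 CPM at D3. Both D8 sums were thus below both D1 sums, and between these days the list's median was -2.15 and Zscan4c stood at -2.76 (edgeR adjusted p = 0.11). Whether members differed from D1 depended on the tool: edgeR called 0 of them, with 27 lower and 3 higher at an unadjusted p under 0.05, and DESeq2 called 16 lower and 1 higher. In bulk RNA, fewer cells in a state and less RNA per cell cannot be told apart. Zscan4, Dux, Usp17l, Tdpoz and Tcstv genes have near-identical copies, which makes the value of any 1 of them uncertain, while Zfp352 and Spz1 are outside these families.

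Some germline genes fell as well. Of 43 germline and meiosis genes tested, 15 were lower (34.9%, against 11.2% of all genes tested) and 4 higher (9.3%, against 11.3%), 24 were not called, and the median was -0.51. Without D3 replicate 2 the number lower was 5. Dazl, an RNA-binding protein gene of germ cells, had 99.2 and 139 CPM at D3 and 27.3 and 19.8 CPM at D8 (-2.34 ± 0.25, adjusted p = 0.00091), and both D8 values also lay below the D1 values of 49 and 69.9 CPM (-1.34, adjusted p = 0.094). Sycp1, of the synaptonemal complex, fell by 2.41 ± 0.27 and Brdt, a testis bromodomain gene, by 2.03 ± 0.27. Against that direction Prdm1, a repressor needed for germ cell specification, rose from 1.39 and 2.93 CPM to 16.9 CPM or more in both D8 libraries (3.05 ± 0.43, adjusted p = 0.0022). Dppa2, an activator of Dux and of germline genes, fell from 220 and 172 CPM to 62.6 and 61 CPM (-1.67 ± 0.16, adjusted p = 0.00073) and was 1 of the 7 genes called lower than at D1 (-1.08, adjusted p = 0.046). Of 58 imprinted genes, 12 were lower (20.7%, against 11.2% of all genes) and 5 higher (8.62%, against 11.3%), with 2 lower without D3 replicate 1 and 5 without D3 replicate 2. Leaving out D8 replicate 2 gave 9 lower. Magel2 fell by 3.52 ± 0.46 and Phlda2, a growth restraint gene of the placenta, rose by 1.73 ± 0.21.

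The naive pluripotency network rose in part. Of 32 genes, 15 were higher (46.9%, against 11.3% of all genes tested) and 4 lower (12.5%, against 11.2%), with a median of 0.58. The number higher was 15 when D8 replicate 2 was left out, 7 when D3 replicate 1 was and 12 when D3 replicate 2 was. Fgf4, the growth factor gene of the epiblast, measured 55.1 and 52.2 CPM at D3 and 203 and 208 CPM at D8 (1.94 ± 0.17, adjusted p = 0.00055), and 198 and 246 CPM at D1. Tfcp2l1, a core naive transcription factor, rose from 190 and 223 to 677 and 613 CPM (1.64 ± 0.14, adjusted p = 0.00051). Tcl1, a coactivator of Akt kinase, rose by 2.46 ± 0.27, Prdm14, a repressor that guards the naive state, by 1.47 ± 0.28, and the threonine dehydrogenase gene Tdh by 1.63 ± 0.2. Klf4 and Esrrb rose by 0.9 ± 0.15 and 0.86 ± 0.14 (adjusted p = 0.005 and 0.0041), and both calls were lost without D3 replicate 1. The 4 members lower at D8 were Mael, Fbxo15, Jam2 and Nr0b1.

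Of the central factors, Sox2 and Nanog were not called. Sox2 had 298 and 400 CPM at D3 and 369 and 381 CPM at D8, with overlapping groups (0.10 ± 0.16, adjusted p = 0.68). Nanog had 485 and 420 CPM at D3 and 517 and 536 CPM at D8 (0.22 ± 0.24, adjusted p = 0.54), below the D1 values of 788 and 740 CPM. Pou5f1, which encodes OCT4, rose by 0.5 ± 0.15 (adjusted p = 0.047), a call lost in 11 of the alternative fits, among them those without D3 replicate 1, D3 replicate 2 or D8 replicate 2 and the correction for GC content. Over the 25 general pluripotency genes, 5 were higher (20%, against 11.3% of all genes tested) and 1 lower (4%, against 11.2%), with a median of -0.09. The balance was not stable: 2 were higher when D8 replicate 2 was left out and 0 when D3 replicate 1 was, and after correction for GC content and length 1 was higher and 5 lower.

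Genes of the formative and primed epiblast, the state that follows the naive one, moved both ways, with 7 lower (30.4%) and 4 higher (17.4%) of 23, and 7 lower and 2 higher without D8 replicate 2. The de novo DNA methyltransferase gene Dnmt3a had 319 and 318 CPM at D3 and 79.3 and 86.3 CPM at D8 (-1.94 ± 0.14, adjusted p = 0.00042), where D1 had 110 and 106 CPM. Zic2, a zinc finger regulator of the epiblast, fell from 40.9 and 45.1 to 4.97 and 4.79 CPM (-3.14 ± 0.22), and the ligand gene Wnt8a by 3.15 ± 0.45. The 4 higher members, Krt18, Cldn6, Car4 and Etv4, include an epithelial keratin and a claudin. Beside these shares and those of the next list, 11.2% of all genes tested were lower and 11.3% higher. Neural ectoderm genes gave 3 lower (18.8%), namely the Notch ligand gene Dll1 and the homeobox genes En1 and En2, and 3 higher (18.8%) of 16, and after correction for GC content and length 5 lower and 2 higher.

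**Figure D2:**
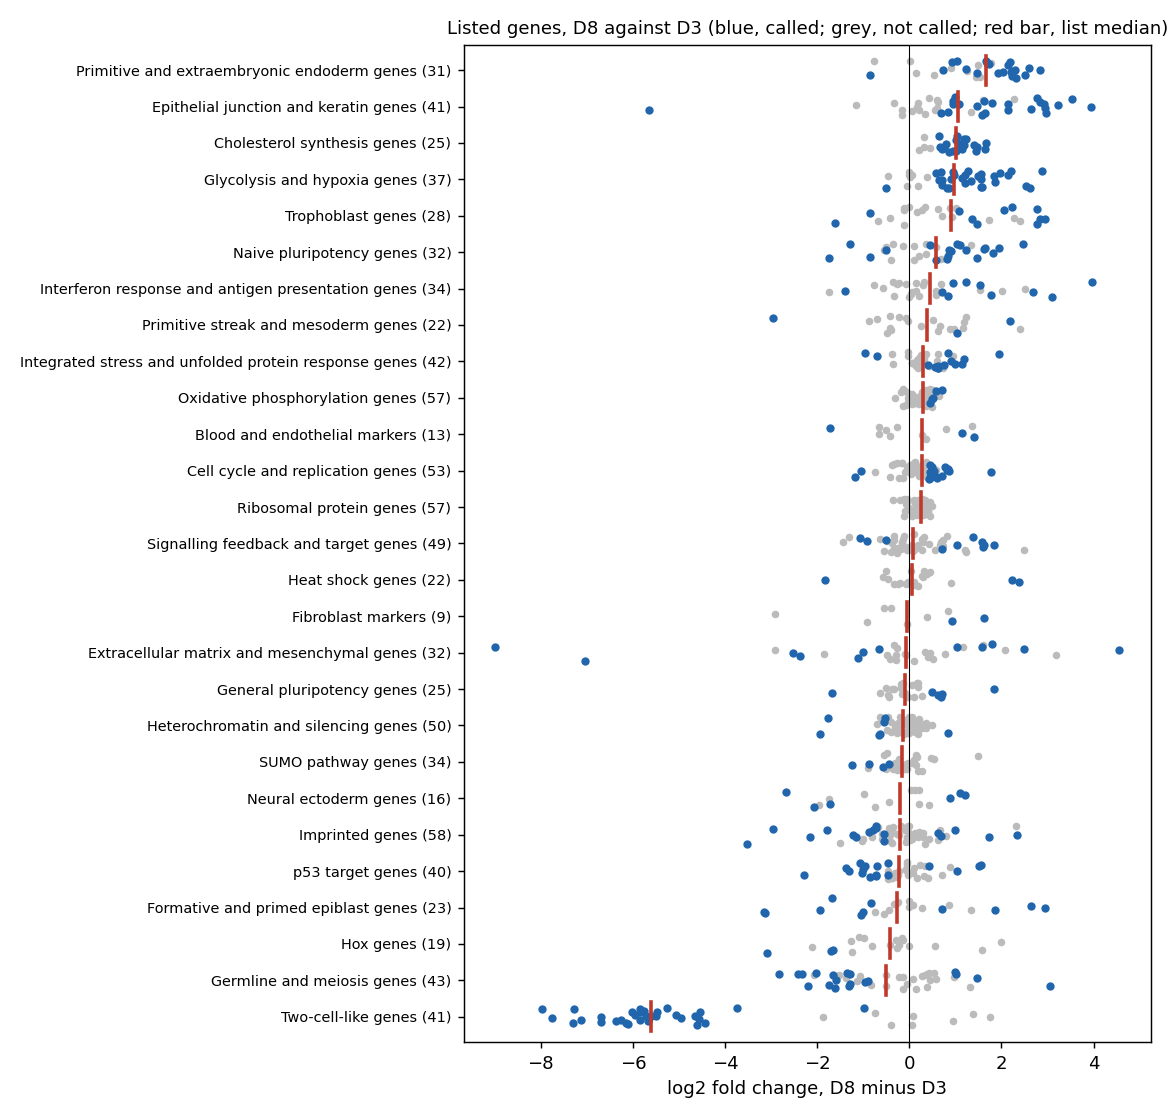
Log2 fold change, D8 minus D3, of each listed gene tested, with the number tested after each list's name. Blue points were called, grey points were not, and the red bar is the list's median. The 2-cell-like genes lie furthest to the left, and the endoderm, epithelial, cholesterol and glycolysis lists have medians of 0.97 to 1.67.

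Primitive and extraembryonic endoderm genes rose, and part of them stood higher at D8 than at D1 as well. Of 31 genes, 20 were higher than at D3 (64.5%, against 11.3% of all genes tested) and 1 lower (3.23%, against 11.2%), with a median of 1.67. The number higher was 11 when D8 replicate 2 was left out, 8 when D3 replicate 1 was and 13 when D3 replicate 2 was. Dab2, an endocytic adaptor of primitive endoderm, had 6.06 and 11.1 CPM at D3 and 55.3 and 67.6 CPM at D8 (2.83 ± 0.35, adjusted p = 0.0014), against 5.12 and 8.26 CPM at D1. Its D8 to D1 difference was 3.19 (adjusted p = 0.041). The lineage factor Gata4 rose from 3.41 and 4.25 to 13.7 and 30.1 CPM (2.51 ± 0.43, adjusted p = 0.0047) and Sox17 from 2.32 and 3.94 to 9.78 and 19.9 CPM (2.24 ± 0.4, adjusted p = 0.0057, lost without D3 replicate 1). Gata6 measured 5.85 and 7.87 CPM at D3 and 11.1 and 15.1 CPM at D8 (0.93 ± 0.24, adjusted p = 0.025, and 0.11 without D8 replicate 2). Cubilin, the endocytic receptor encoded by Cubn, rose from 17.4 and 36.9 to 129 and 141 CPM (2.31 ± 0.4).

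The basement membrane genes of the endoderm rose along with them. Lama1, a laminin chain gene, had 89 and 121 CPM at D3 and 395 and 575 CPM at D8 (2.21 ± 0.29, adjusted p = 0.0017). The neighbouring collagen genes Col4a1 and Col4a2 rose by 2.25 ± 0.39 and 2.3 ± 0.42, and Lamb1 by 1.68 ± 0.29. The member that fell was the FGF receptor gene Fgfr2, from 12.6 and 12.3 to 6.02 and 7.66 CPM (-0.86 ± 0.23, adjusted p = 0.027), though at D8 it was above the D1 values of 2.3 and 1.86 CPM (1.73, adjusted p = 0.046). Against D1, 8 of the 31 genes were called higher at D8, all near the threshold, and the list's median was 1.93. These calls against D1 were not refitted without D8 replicate 2 or with a correction for GC content. The 5 primitive endoderm markers summed to 18.2 and 28.8 CPM at D3, 93.8 and 137 CPM at D8, 14.1 and 17.7 CPM at D1 and 71.6 and 74.7 CPM at D10. D8 replicate 2 gave the higher D8 value for each of Gata4, Gata6, Sox17, Dab2, Cubn, Lama1, Col4a1 and Col4a2, so the list was also fitted with a correction of each library for GC content and length. That fit gave 16 members higher and 1 lower, with a median of 1.28, and log2 fold changes of 2.04 for Gata4, 1.96 for Sox17, 2.96 for Dab2 and 2.49 for Cubn, all still called. Gata6 lost its call in that fit, at 0.54 (edgeR adjusted p = 0.07).

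**Figure D3:**
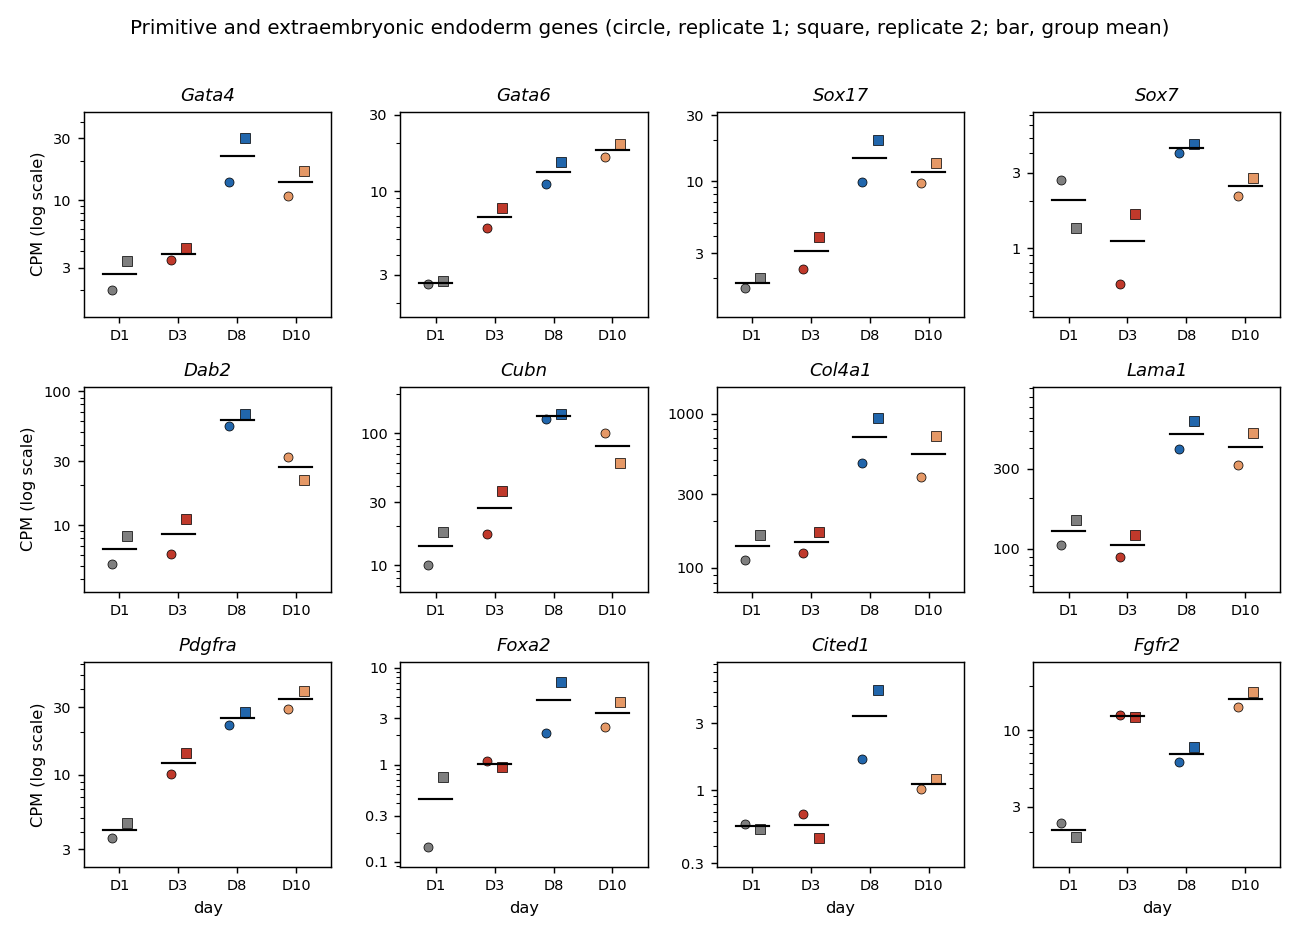
CPM on a log axis by day for 12 endoderm genes, with a circle for replicate 1, a square for replicate 2 and a bar for the mean. Gata4, Sox17, Dab2, Cubn, Col4a1 and Lama1 stay low at D1 and D3 and are high at D8 and D10, and Fgfr2 is lower at D8 than at D3.

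Epithelial genes formed a further rising group. For this and the other lists of the paragraph, the shares of all genes tested were 11.3% higher and 11.2% lower. Of 41 genes of tight junctions, desmosomes and keratins, 22 were higher (53.7%) and 1 lower, with a median of 1.06, and 12 were higher when D8 replicate 2 was left out, 8 when D3 replicate 1 was and 10 when D3 replicate 2 was. Cldn4, a claudin of tight junctions, measured 3.75 and 5.19 CPM at D3 and 48.3 and 90 CPM at D8 (3.95 ± 0.53, adjusted p = 0.0019). Tjp3, a scaffold of the same junctions, rose from 3.12 and 3.38 to 23.6 and 37.5 CPM (3.23 ± 0.32, adjusted p = 0.00082), and the E-cadherin gene Cdh1 from 205 and 165 to 329 and 329 CPM (0.83 ± 0.14, adjusted p = 0.005). Krt8 and Krt18, a keratin pair of simple epithelia, rose by 2.77 ± 0.61 and 2.95 ± 0.73, but D8 replicate 2 lay far above replicate 1 (123 and 41.1 CPM for Krt8), and neither passed without it. The claudin gene Cldn10 went the other way, from 2.19 and 4.77 CPM to 0.0327 and 0.0965 CPM. Zeb2, Snai2 and Zeb1, repressors of epithelial genes, fell by 2.37 ± 0.38, 2.52 ± 0.39 and 1.01 on the log2 scale. They belong to a list of 32 extracellular matrix and mesenchymal genes that moved both ways, with 5 higher (Tgm2 among them) and 7 lower and a median of -0.08. Trophoblast genes, several of them shared with the epithelial list, gave 9 higher and 2 lower of 28 (5 higher when D8 replicate 2 was left out, 2 when D3 replicate 1 was and 4 when D3 replicate 2 was). Tead4, a trophectoderm regulator, rose from 7.2 and 8.36 to 56.8 and 49.8 CPM (2.77 ± 0.21, adjusted p = 0.00042). The lineage factors Cdx2 and Gata3 stayed at or below 0.74 CPM in the 4 libraries.

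Genes of sugar and sterol metabolism rose, with most members of both lists called. Of 37 genes of glycolysis and the response to low oxygen, 28 were higher (75.7%, against 11.3% of all genes tested) and 1 lower (2.7%, against 11.2%), with a median of 0.97. The number higher was 18 when D8 replicate 2 was left out, 11 when D3 replicate 1 was and 10 when D3 replicate 2 was. Tpi1, which encodes the glycolytic enzyme triosephosphate isomerase, had 138 and 95.1 CPM at D3 and 383 and 695 CPM at D8 (2.21 ± 0.33, adjusted p = 0.0028). Hexokinase 1, encoded by Hk1, rose from 24.2 and 31.2 to 82.1 and 134 CPM (1.96 ± 0.26, adjusted p = 0.0019), and Pgk1, of phosphoglycerate kinase, from 69.4 and 61.3 to 144 and 241 CPM (1.56 ± 0.27, adjusted p = 0.0053). Vegfa, the angiogenic factor induced by low oxygen, rose from 11 and 13.5 to 33.5 and 35.2 CPM (1.49 ± 0.21, adjusted p = 0.0022). Bnip3, a mitophagy receptor gene, rose by 1.56 ± 0.43 (adjusted p = 0.034) and did not pass without D8 replicate 2. The glucose transporter gene Slc2a1 overlapped between the groups (-0.06 ± 0.34, adjusted p = 0.92), and Pdk1, the kinase that restrains pyruvate dehydrogenase, fell by 0.5 ± 0.13. D8 replicate 2 was again the higher D8 library for Tpi1, Hk1, Pgk1, Vegfa and Bnip3.

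Promoters of this group were searched for ACGTG, the core of the element bound by hypoxia-inducible factors, on both strands of the 300 bases around each RefSeq start. Of the 33 members with a promoter in the table, 23 (69.7%) held it, against 21.8% of 27025 genes and 19.6% of all 32851 windows. Among the 26 members called higher that have a promoter it was 18 (69.2%), and a comparison with the other members is void, since only 77.8% of those have a promoter in the table. A match is a description of these bases and not a site shown to be used. The list was made of glycolysis and low-oxygen genes, so its share beside all genes describes the list and not the change at D8. Pgk1 and Bnip3 are shown because both rose and each holds 2 matches, given in capitals. The window is chrX:106186850-106187149 on the plus strand for Pgk1 and chr7:138909457-138909756 on the minus strand for Bnip3 (GRCm38.p6), and in Bnip3 both matches overlap in 1 palindrome.
Pgk1: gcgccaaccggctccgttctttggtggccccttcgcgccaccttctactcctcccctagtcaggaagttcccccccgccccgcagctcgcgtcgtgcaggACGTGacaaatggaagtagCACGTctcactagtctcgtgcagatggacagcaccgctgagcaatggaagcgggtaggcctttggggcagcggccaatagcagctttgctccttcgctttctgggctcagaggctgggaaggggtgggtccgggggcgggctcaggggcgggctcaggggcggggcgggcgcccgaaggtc
Bnip3: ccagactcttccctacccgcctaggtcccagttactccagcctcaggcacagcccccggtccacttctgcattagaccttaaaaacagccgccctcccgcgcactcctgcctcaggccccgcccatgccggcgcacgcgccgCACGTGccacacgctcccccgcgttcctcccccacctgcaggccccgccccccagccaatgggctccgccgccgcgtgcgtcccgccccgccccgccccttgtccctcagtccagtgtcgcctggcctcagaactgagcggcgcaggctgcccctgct

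Cholesterol synthesis genes had the largest share of rises among the lists, where 11.3% of all genes tested were higher. Of 25 genes, 21 were higher (84%) and 0 lower, with a median of 1.02, and 14 were higher when D8 replicate 2 was left out, 10 when D3 replicate 1 was and 9 when D3 replicate 2 was. The sterol sensor partner Insig1 rose from 55 and 44.9 to 117 and 147 CPM (1.4 ± 0.21, adjusted p = 0.003). The lanosterol synthase gene Lss rose by 1.23 ± 0.18, and Fdps, which encodes farnesyl diphosphate synthase, from 3.7 and 2.61 to 7.43 and 12.6 CPM (1.67 ± 0.32, a call lost without D3 replicate 2). Sqle, which encodes squalene epoxidase, did not pass, at 89.8 and 88.6 CPM at D3 and 96.2 and 127 CPM at D8 (0.32 ± 0.15, adjusted p = 0.16). By contrast, of 57 ribosomal protein genes 0 were called by edgeR and 0 by DESeq2 (median 0.25), with 7 higher and 0 lower at an unadjusted p under 0.05. In edgeR 0 were called without D8 replicate 2, 31 were higher without D8 replicate 1 and 10 without a filter on low counts. Oxidative phosphorylation gave 5 higher of 57 (8.77%, against 11.3% of all genes), 1 without D8 replicate 2 and 27 without D8 replicate 1.

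**Figure D4:**
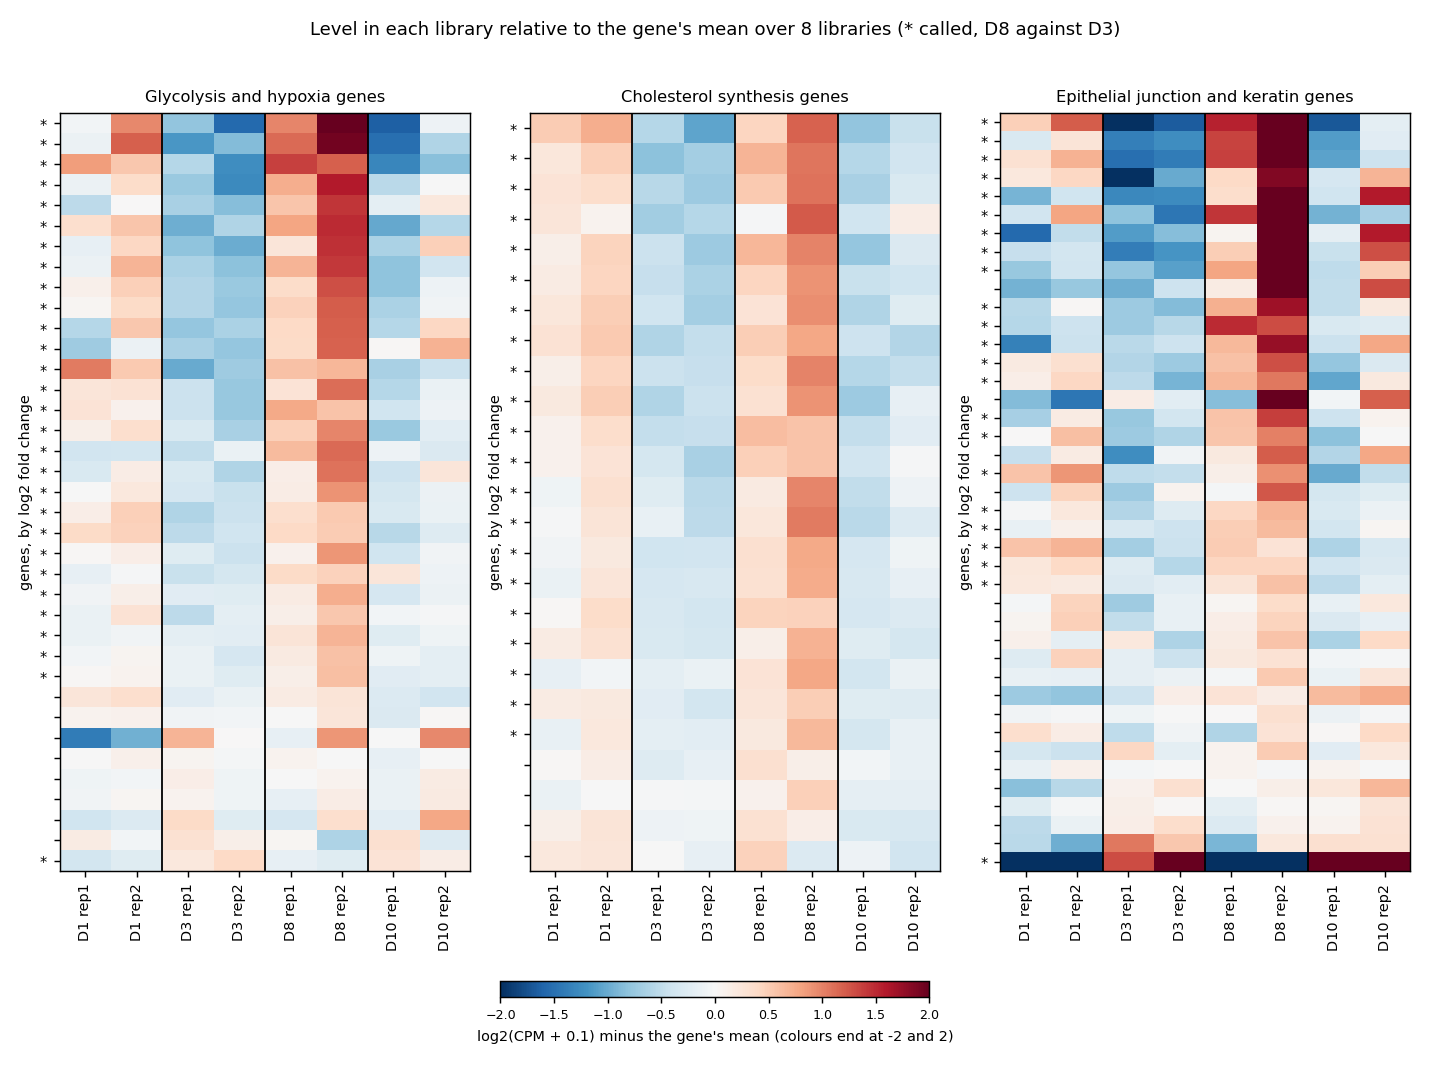
Level of each tested gene of the glycolysis, cholesterol and epithelial lists in the 8 libraries, as log2(CPM + 0.1) minus the gene's mean over the libraries. Each line of cells is a gene, ordered by its D8 to D3 difference, with an asterisk where it was called. Red is above and blue below the gene's mean, and colours end at -2 and 2. Both D3 columns are mostly blue and both D8 columns mostly red, with D8 rep2 the strongest red.

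Part of the stress response genes were higher after withdrawal, among them enzymes of amino acid synthesis. Of 42 genes of that response and of the unfolded protein response, 12 were higher (28.6%, against 11.3% of all genes tested) and 2 lower (4.76%, against 11.2%), with a median of 0.3. The number higher was 10 when D8 replicate 2 was left out, 0 when D3 replicate 1 was and 6 when D3 replicate 2 was. Nupr1, a stress-induced chromatin protein gene, had 1.64 and 2.99 CPM at D3 and 11.1 and 6.98 CPM at D8 (1.95 ± 0.36, adjusted p = 0.0063). Phgdh and Psat1, which encode enzymes of serine synthesis, rose by 1.15 ± 0.24 and 0.85 ± 0.15, and the asparagine synthetase gene Asns rose from 381 and 440 to 593 and 679 CPM (0.63 ± 0.14, adjusted p = 0.015). The chaperone cofactor Dnajb9, of the unfolded protein response, fell by 0.96 ± 0.22.

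The letters TGATGNAA, the core of the amino acid response element bound by ATF4, were in the promoters of 10 of the 36 members with a promoter (27.8%), against 4.51% of 27025 genes and 3.97% of all windows. Here too the share beside all genes describes the list and not the change at D8. Among members called higher it was 4 of 10 (40%), and among the others 6 of 26 (23.1%). The promoter windows of Phgdh and Psat1 held no match. Nupr1 and Asns are shown with the match in capitals, which in Nupr1 lies on the opposite strand. Their windows are chr7:126625421-126625720 and chr6:7693160-7693459 (GRCm38.p6), both read on the minus strand.
Nupr1: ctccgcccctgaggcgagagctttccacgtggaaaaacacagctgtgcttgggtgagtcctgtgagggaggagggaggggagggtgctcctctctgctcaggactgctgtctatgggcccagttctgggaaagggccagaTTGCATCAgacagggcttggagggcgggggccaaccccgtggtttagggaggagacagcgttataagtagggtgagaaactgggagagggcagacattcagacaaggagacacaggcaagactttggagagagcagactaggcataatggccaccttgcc
Asns: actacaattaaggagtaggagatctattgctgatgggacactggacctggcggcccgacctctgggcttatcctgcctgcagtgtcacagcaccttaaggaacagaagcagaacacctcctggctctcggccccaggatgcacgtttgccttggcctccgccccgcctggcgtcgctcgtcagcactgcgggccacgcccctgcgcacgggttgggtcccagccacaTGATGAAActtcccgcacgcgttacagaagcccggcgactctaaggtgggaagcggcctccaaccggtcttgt

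Some targets of p53, the transcription factor of the DNA damage response, fell. Of 40 genes, 13 were lower (32.5%, against 11.2% of all genes), 4 were higher and 23 were not called, with a median of -0.23, and 10 were lower when D8 replicate 2 was left out, 5 when D3 replicate 1 was and 6 when D3 replicate 2 was. Pmaip1, which encodes the apoptosis activator NOXA, had 259 and 214 CPM at D3 and 48.9 and 48.7 CPM at D8 (-2.28 ± 0.21, adjusted p = 0.00068). Mdm2, the ubiquitin ligase that restrains p53, fell from 320 and 328 to 177 and 181 CPM (-0.86 ± 0.15, adjusted p = 0.0057). The cell cycle inhibitor gene Cdkn1a had 42.8 and 55.3 CPM at D3 and 24.8 and 50.8 CPM at D8, with overlapping groups (-0.38 ± 0.31, adjusted p = 0.42). Gdf15, a stress cytokine gene, rose by 1.51 ± 0.27, against the direction of most.

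Most cell cycle and replication genes were not called. Of 53 genes, 15 were higher (28.3%, against 11.3% of all genes), 2 lower and 36 not called, with a median of 0.27, and 9 were higher without D8 replicate 2, and 4 in each of the fits without D3 replicate 1 or D3 replicate 2. Cyclin D3, encoded by Ccnd3, rose from 67.7 and 75.2 to 209 and 276 CPM (1.77 ± 0.18, adjusted p = 0.00086), whereas cyclin D2, encoded by Ccnd2, fell from 32.4 and 35.6 CPM to a mean of 15.2 ± 5.65 CPM (SD, n = 2) (-1.17 ± 0.28, adjusted p = 0.018). The retinoblastoma gene Rb1, a brake on S phase entry, fell by 1.04 ± 0.18.

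Interferon response and antigen presentation genes gave 9 higher (26.5%, against 11.3% of all genes) and 1 lower of 34 (median 0.45), and 5 higher in each of the fits without D8 replicate 2, D3 replicate 1 or D3 replicate 2. Xaf1, an interferon-induced apoptosis factor, rose from 2.48 and 3.38 to 54.6 and 37.6 CPM (3.97 ± 0.41, adjusted p = 0.0009). The antiviral membrane protein gene Ifitm1 rose from 10.4 and 9.96 to 78.9 and 96.4 CPM (3.1 ± 0.36), and B2m, the light chain of class I molecules, from 6.99 and 7.8 to 17.2 and 25.6 CPM (1.53 ± 0.26).

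The SUMO machinery itself was examined next. The E1 subunit genes did not pass: Uba2 had 641 and 732 CPM at D3 and 610 and 634 CPM at D8 (-0.14 ± 0.13, adjusted p = 0.45), and Sae1 398 and 364 against 359 and 463 CPM (0.11 ± 0.15, adjusted p = 0.65). ML-792 acts on the E1 protein, so these levels do not check the exposure. Of 34 genes of the pathway, 4 were lower (11.8%, against 11.2% of all genes) and 0 higher, the lower ones being the ligase Zmiz1 (-1.25 ± 0.22), the protease genes Senp7 and Desi2, and Uhrf2. None of the 4 was called without D3 replicate 1, and 1 of the list was called lower without D8 replicate 2. Among 50 genes of heterochromatin and silencing, 6 were lower (12%, near the 11.2% of all genes) and 1 higher, with 2 lower in the fit without D3 replicate 1, 2 in that without D3 replicate 2 and 3 in that without D8 replicate 2. Beside Dnmt3a, Atf7ip, a partner of the methyltransferase SETDB1, fell from 216 and 231 to 63 and 67.6 CPM (-1.77 ± 0.17, adjusted p = 0.00077), next to 50.8 and 68.8 CPM at D1. Trim28 and Setdb1, which act in the same silencing complex, did not pass (-0.09 ± 0.14 and -0.25 ± 0.11).

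The genes were also set beside D10 against D1, a pair of days that shares no library with D8 and D3 and runs in the other direction, from untreated cells to the end of an exposure. Between D10 and D1, 1541 genes were higher (8.04%) and 921 lower (4.8%). The genes lower at D8 than D3 and higher at D10 than D1 numbered 913, or 42.6% of the falls and 59.2% of the D10 rises. Those higher at D8 and lower at D10 numbered 598, or 27.5% of the rises and 64.9% of the D10 falls. Over all 19173 genes, the correlation of both differences was r = -0.665 and rho = -0.576, as a description, since genes are not independent replicates. The first count was 219 to 961 and the second 152 to 705 when 1 library at a time was left out.

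A small set moved the same way in both. The genes higher in both pairs numbered 55, and 3 were lower in both. The 55 were 2.53% of the rises at D8, while 8.04% of all genes tested were higher at D10. They were 3.57% of the D10 rises, while 11.3% of all genes were higher at D8. Both shares were thus below those of all genes. The endoderm list holds 31 of the 19173 genes tested. Of the 55, 53 code for proteins, 13 are on the endoderm list, 19 were also called higher between D8 and D1, 5 were called higher at D3 than D1, and 25 were still called without D8 replicate 2. Habp2, a secreted protease gene, measured 0.505 and 0.592 CPM at D3 and 2.85 and 5.12 CPM at D8 (2.84 ± 0.39, adjusted p = 0.0021), and rose between D1 and D10 by 3.26 ± 0.41. Pth1r, a parathyroid hormone receptor of parietal endoderm, rose by 2.71 ± 0.39 and 1.41 ± 0.38, and Amot, which encodes the Hippo regulator angiomotin, by 2.2 ± 0.29 and 1.95 ± 0.3. Gata4, Sox17, Lama1 and Col4a1 are also in the set, with D10 to D1 rises of 1.66 or more. The genes lower in both were Ptgs1, a cyclooxygenase gene, Hal, of histidine breakdown, and Eprn. Habp2, Pth1r, Amot, Ptgs1, Hal and Eprn fell outside the rule for named genes and were chosen after their values were seen. The size of the set depended on single libraries and on the fit: it was 9 to 121 genes with 1 library left out and 84 with DESeq2.

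**Figure D5:**
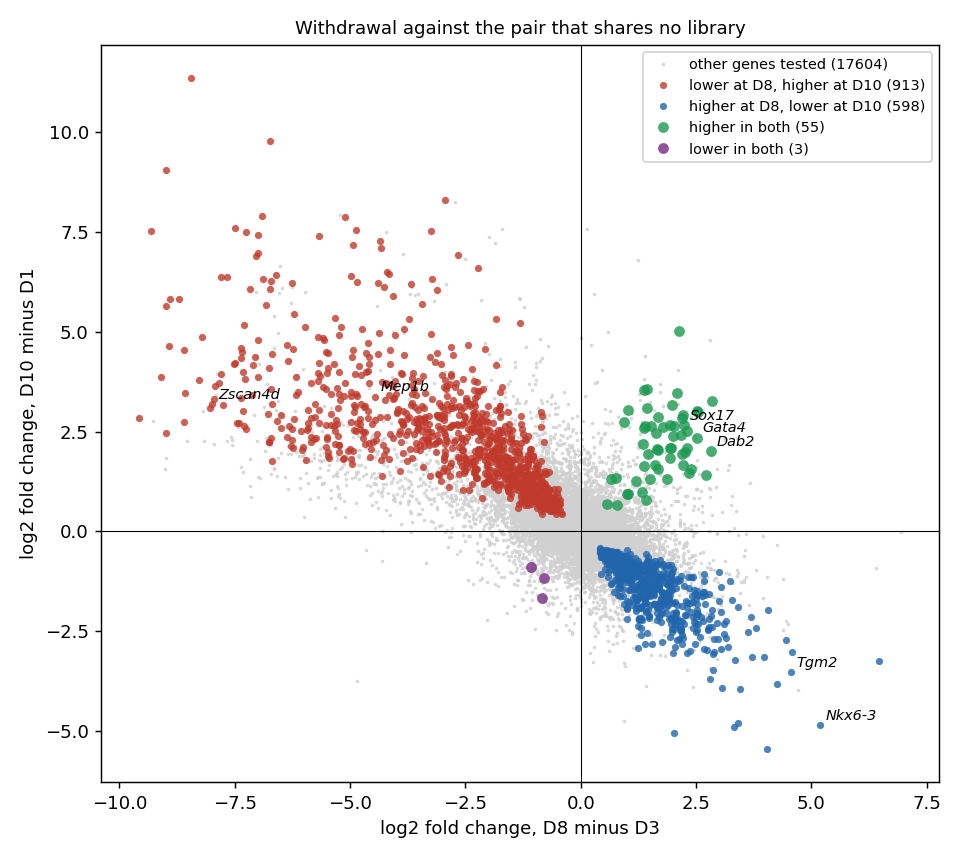
Log2 fold change of each of the 19173 genes, D8 minus D3 on the x axis and D10 minus D1 on the y axis. Coloured points were called in both pairs: 913 red genes lower at D8 and higher at D10, 598 blue genes the reverse, 55 green genes higher in both and 3 purple genes lower in both.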

How the data were processed

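RNA was sequenced in 8 libraries, 2 for each of the 4 days. The authors deposited raw counts, as whole reads for each Ensembl gene and not normalized. Per the submitters' processing notes, bcl2fastq 2.17.1.14, STAR 2.5.0a, featureCounts and the build mm10 were used. How featureCounts treated strand and multi-mapped reads, its version and its annotation: not given in the sources used here. Per the labels' protocols the libraries were stranded total RNA after removal of ribosomal RNA, although the molecule is labelled polyA RNA. The dose is printed as labelled.

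The table holds 36920 genes, and 36901 matched a GENCODE M21 symbol (GRCm38) by identifier. edgeR 4.0.16 in R 4.3.3 kept 19173 genes by filterByExpr, and 1 quasi-likelihood fit of the 4 groups, without covariates, gave every comparison (2-sided, 4 residual degrees of freedom, biological coefficient of variation 19.6%). All genes tested entered the Benjamini-Hochberg adjustment, with calls at adjusted p below 0.05. SEs of log2 fold changes were derived from the F statistic (absolute change over the root of F). CPM values are TMM-scaled. The scripts were tested on simulated counts. Log2 CPM, used for the GC content trend and correction of each library and for correlations between libraries, had a prior count of 2. Log2 fold changes are those of the fit. The precision of each value depends on the reads of its gene and on the spread between libraries.

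Genes were named among those called with a mean of at least 1 CPM over the 4 libraries and no overlap, leaving out predicted-gene names and mitochondrial genes, with at most 2 for each name stem: the 10 largest rises and 10 largest falls, the 6 largest of each above 50 CPM, up to 4 members of each of the 27 lists, and, whatever their value, Sae1, Uba2, Pou5f1, Nanog, Sox2, Esrrb, Klf4, Sox17, Duxf3, Zfp352 and Zscan4c. Other list members are named as examples, and some genes the rule picks are not reported here. The comparison, the lists and this rule were chosen with earlier results of these data known. Lists were described by counts and medians, without a test. Promoters are RefSeq windows (GRCm38.p6, 300 bases). Alternatives were DESeq2 1.42.0, RLE scaling, no filter, a filter of 5 CPM in 2 libraries, D3 and D8 libraries only, the replicate number as a block, a correction for GC content and length, and leaving out each library.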

Additional observations from a re-analysis of the deposited data

How the results depend on the processing

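With the filter of 5 CPM in 2 libraries, 2625 genes were called, 1131 of them lower, with 125 higher and 249 lower by 4-fold or more and 487 lower at D8 and higher at D10. With the D3 and D8 libraries alone, 1430 genes were higher, and the overlap with D10 against D1 has no value in that fit. Without a filter on low counts 1446 genes were lower at D8 and higher at D10, and 165 were higher in both pairs, a set that held 84 genes with DESeq2 and 83 with the GC content and length correction. That correction gave 898 genes higher at D8 and lower at D10, and 12 of the 4312 called genes changed direction under it.

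Over the fits that leave out 1 library, 1522 to 5869 genes were called, with 551 to 2848 higher, 971 to 3021 lower, 179 to 452 higher by 4-fold or more and 722 to 1243 lower by 4-fold or more. The genes lower at D8 and higher at D10 numbered 219 to 961, the reverse 152 to 705, and those higher in both 9 to 121. The lowest count of calls came without D3 replicate 1 and the highest without D8 replicate 1. Such a fit assumes that the lone library of its day varies like the other days. Of the 122 named genes 118 were called, 66 kept the call in each of the 16 alternatives, and 0 of those called changed direction, while the uncalled Sae1 ranged from -0.06 to 0.29 and Sox2 from -0.08 to 0.35. The others lost it most often without D3 replicate 1 (50 genes), D3 replicate 2 (28) and D8 replicate 2 (27).

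With the replicate number as a block, 6547 genes were called (3364 lower), 1427 were lower at D8 and higher at D10, 1094 the reverse and 147 higher in both. With the block and the GC content and length correction the numbers were 6794, 3601, 1665, 1397 and 163. Deviations of same-numbered libraries from their means correlated across genes at r = 0.153 between D3 and D8, 0.301 between D1 and D10 and 0.101 to 0.498 over the 6 pairs of days. With 2 numbers and no label that ties them to a shared culture or batch, the libraries were not treated as pairs.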

Other observations

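Outside the groups above, the falls at D8 included genes of sensory receptor families. Of all genes tested, 11.2% were lower and 11.3% higher. Of 24 olfactory receptor genes tested, 18 were lower and 0 higher, with a median log2 fold change of -4.04, and of 18 vomeronasal receptor genes 13 were lower and 0 higher (median -3.97). Leaving out D8 replicate 2, 14 and 11 were lower. Of 11 Nlrp genes 4 were lower and 0 higher. By class of gene, 57 of 118 unprocessed pseudogenes tested (48.3%) and 171 of 702 long intergenic RNAs (24.4%) were lower, against 1577 of 14693 coding genes (10.7%), and 2, 35 and 2071 were higher. Histone genes, whose messages mostly lack a poly(A) tail, went the other way, with 28 of 67 higher and 1 lower, but 10 higher without D8 replicate 2. Reads of these families and pseudogenes can be shared with near-identical copies, and these groups were chosen after their values were seen. Only genes that passed the low-count filter are counted. A gene near silence at D8 passes it only through the other days, so falls in the receptor and pseudogene groups were partly set by the filter.

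Falls also lay next to each other. Runs of at least 3 consecutive tested genes that were each called and 4-fold or more lower numbered 60 and held 261 genes, and such runs of higher genes numbered 5 and held 16. Of all genes tested, 5.71% were called and 4-fold or more lower and 1.79% higher, so the numbers of runs cannot be compared directly. Genes that failed the low-count filter were skipped, and a gene near silence at D8 passes it only through the other days. Whether falls lay together beyond these shares was not tested. The longest run of lower genes, of 33 genes, spanned chr12:87480108-88354686. The Zscan4 run of 13 genes spanned chr7:10794242-11983912, a Tdpoz run of 13 genes chr3:93628640-94266784, and a run of 6 genes with the lens crystallins Crygb, Crygc, Crygd and Cryge chr1:65012689-65082288. How far reads shared between copies of a family set these runs was not tested. On chromosome 3, opposite changes met: Mecom, which encodes the transcription factor EVI1, and its neighbours fell by 3.72 to 6.56 on the log2 scale over chr3:28879812-30564243, and Lrrc34, Lrriq4 and Lrrc31 beside them rose by 3.71 to 4.57 over chr3:30624267-30699843. Lrriq4 had 0.295 and 0.453 CPM at D3 and 9 and 9.17 CPM at D8 (4.57 ± 0.38, edgeR adjusted p = 0.00051).

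In the other gene groups most members were not called. Their shares stand beside 11.3% of all genes tested higher and 11.2% lower. The Hox genes had 15.8% lower, and the signalling genes 14.3% higher and 6.12% lower. Without D8 replicate 2, 4 of the 32 extracellular matrix and mesenchymal genes were higher and 4 lower. Of 19 Hox genes, the body axis regulators, 3 were lower and 0 higher (median -0.42), and none was called without D8 replicate 2. Of 49 signalling feedback and target genes, 7 were higher and 3 lower (0.07), with 2 higher and 4 lower without D8 replicate 2 and 5 higher and 9 lower after correction for GC content and length. Heat shock genes gave 2 higher and 1 lower of 22 (0.06), and genes of the primitive streak and mesoderm 2 higher and 1 lower of 22 (0.39), and 0 of either without D8 replicate 2. Of the markers of other cell types, 2 of 9 fibroblast genes were higher and 0 lower (-0.04), and 2 of 13 blood and endothelial genes were higher and 1 lower (0.28), with none called without D8 replicate 2.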
